A study of Homo sapiens with 6 samples.

Results

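The genes described here make, supply and remove the deoxynucleoside triphosphates (dNTPs) from which DNA is built. They were chosen by name, as RRM1, RRM2, RRM2B, TYMS, TK1, DTYMK, DUT and SAMHD1, and all 8 were among the 16834 genes with values. The libraries came from HEK293-T Flp-In cells, a human embryonic kidney-derived line with a single site for transgene insertion, and all 6 libraries came from growing cells that had not been synchronized. Every library, in both groups, carried the same ccTaggedRP transgene. The CAG promoter drove 1 mRNA that encoded Flag-RPL10a-hCdt and HA-RPL10a-hGem, separated by a ribosome-skipping peptide, and hygromycin selected the cells that held it. RPL10a is a protein of the large ribosomal subunit, so an antibody to either tag recovers ribosomes and the mRNAs bound to them. The hCdt part is degraded from late S phase through G2 and M phase, and the hGem part is degraded in late G1 and early S phase. The 3 Flag-IPs therefore sampled ribosome-bound mRNA weighted to G1 and early S phase, and the 3 HA-IPs sampled mRNA weighted to S, G2 and M phase, by the design of the tags.

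Libraries held 23174532 to 44134833 reads in genes. The values are normalized counts, that is, reads assigned to a gene divided by a size factor for the library, and these factors ranged from 0.770 to 1.42. No input RNA and no immunoprecipitation from untagged cells was analysed here, so a change in the amount of an mRNA and a change in its share on tagged ribosomes cannot be told apart, and neither can fewer cells of a phase and less RNA per cell. The labels do not say whether libraries of a group came from separate cultures, so p-values measure the spread between these libraries, which may be technical. Among all genes, 12.9% were called (adjusted p of at most 0.05 in limma), 5.79% higher in the HA-IPs and 7.1% higher in the Flag-IPs. All 11 kidney and epithelial markers had values, and 2 were called higher in the HA-IPs and 2 higher in the Flag-IPs. KRT8, an epithelial keratin, had 9904 to 11240 normalized counts. PAX8, a kidney lineage factor, was among those higher in the Flag-IPs, with 24.9 to 44.2 normalized counts against 0 to 4.41 in the HA-IPs. Of 8 mature nephron markers, 3 had values and 2 were called, both higher in the Flag-IPs, and together the 3 took 0.000317 to 0.000734% of counts in the Flag-IPs and 3.13e-05 to 6.92e-05% in the HA-IPs. SLC34A1, a phosphate transporter of the kidney tubule, had 59.0 to 119 normalized counts in the Flag-IPs and 1.41 to 5.94 in the HA-IPs. Of 18 heart muscle markers, 14 had values and all 14 were called higher in the Flag-IPs, where together they took 0.224 to 0.489% of counts, against 0.00562 to 0.0436% in the HA-IPs. NPPA, NPPB, PLN and MYL7 had no values, and none of the 14 heart markers with values was at 0 in any library. Only genes with at least 10 reads in 3 or more libraries have values. PAX8 and the nephron markers SLC12A1 and SLC34A1 reached this only through the Flag-IPs, so their direction follows from the filter and is not a result. TNNT2, MYBPC3 and MB were below 10 normalized counts in HA-IP 1 and HA-IP 2, so they also needed Flag-IPs to have values. The part of these marker lists in the values below was not tested.

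As background, ribonucleotide reductase turns ribonucleoside diphosphates into deoxyribonucleoside diphosphates, and RRM1 supplies its large catalytic subunit. RRM2 is the small subunit made in dividing cells, and RRM2B is the small subunit induced by p53 that also serves cells outside S phase. TYMS makes thymidylate from deoxyuridylate with a folate cofactor, TK1 makes it from thymidine taken up by the cell, and DTYMK adds the next phosphate for both routes. DUT cleaves dUTP, which keeps uracil out of DNA and yields the substrate of TYMS, and SAMHD1 breaks dNTPs down. Demand for dNTPs is highest in S phase, and E2F factors are known regulators of several of these genes at the start of that phase.

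Promoter windows are given for RRM1 and RRM2, which encode the partner subunits of ribonucleotide reductase and differed in their HA-IP to Flag-IP change, and for DTYMK, whose change was nearest to the threshold on the other side. Each window is the 250 bases before the transcription start in RefSeq, build GRCh38.p14, printed 5′ to 3′ on the strand of the gene. RRM1 is at chr11:4094435-4094684 on the plus strand and RRM2 is at chr2:10122489-10122738 on the plus strand. DTYMK is at chr2:241686816-241687065 on the minus strand. Capitals mark matches, on either strand, to the E2F forms TTTCCCGC, TTTGGCGC, TTTCGCGC, TTTGCCGC and TTCCCGCC, to the CCAAT box, or to TTTGAA and TTCGAA, both forms of the cell cycle homology region (CHR).
RRM1: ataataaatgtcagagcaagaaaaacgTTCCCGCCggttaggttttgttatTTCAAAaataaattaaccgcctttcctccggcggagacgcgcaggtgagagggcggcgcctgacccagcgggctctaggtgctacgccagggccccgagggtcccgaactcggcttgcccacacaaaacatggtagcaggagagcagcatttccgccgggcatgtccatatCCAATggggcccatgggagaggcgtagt
RRM2: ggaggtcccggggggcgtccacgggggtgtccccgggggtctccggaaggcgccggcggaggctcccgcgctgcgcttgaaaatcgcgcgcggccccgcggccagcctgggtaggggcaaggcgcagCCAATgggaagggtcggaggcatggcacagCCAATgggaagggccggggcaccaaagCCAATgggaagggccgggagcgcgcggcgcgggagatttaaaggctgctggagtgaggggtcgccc
DTYMK: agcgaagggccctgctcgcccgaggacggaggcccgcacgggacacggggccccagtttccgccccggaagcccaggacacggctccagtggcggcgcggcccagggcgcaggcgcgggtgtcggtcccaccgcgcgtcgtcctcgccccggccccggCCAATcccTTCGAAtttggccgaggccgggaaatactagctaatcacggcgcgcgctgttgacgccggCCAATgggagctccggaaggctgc
The RRM1 window held TTCCCGCC at 223 to 216 bases before the start, TTTGAA on the reverse strand at 199 to 194 bases and CCAAT at 28 to 24 bases. The start in this table lies 114 bases from the start of the canonical transcript of RRM1. The RRM2 window held CCAAT at 123, 93 and 66 bases before the start and none of the E2F or CHR forms. The DTYMK window held CCAAT at 92 and 24 bases and TTCGAA at 84 to 79 bases.

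Among the other genes, TYMS had TTTCCCGC on the reverse strand at 39 to 32 bases before its start, TK1 had CCAAT on the reverse strand at 77 and 46 bases, and SAMHD1 had CCAAT at 49 and 38 bases. The DUT window, at the start used by its canonical transcript and chosen from 4 starts in the table, held none of the motifs. Of all 35116 windows of this length, 4.76% held an E2F form, 32% held CCAAT, 14.3% held a CHR form and 2.93% held CCAAT at least 3 times. TTTCCCGC shares 7 letters with TTCCCGCC when shifted by 1 base, and the other E2F forms were searched separately. A match describes the letters of the window and does not show that a factor binds there.

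Of the 8 genes, 1 passed the test between HA-IPs and Flag-IPs. RRM1 rose 1.29-fold in the HA-IPs, and the other 7 did not pass the threshold of an adjusted p of 0.05 in limma with Benjamini-Hochberg correction over all genes. Among all genes, 12.9% passed, with 5.79% higher in the HA-IPs and 7.1% higher in the Flag-IPs, so 1 of 8 was near the background share. The groups did not overlap for 4 of the 8 genes, against 32.2% of all genes. RRM1 and SAMHD1 had every HA-IP above every Flag-IP, and TK1 and DTYMK had every HA-IP below every Flag-IP. The median change of the 8 genes was 0.053 on the log2 scale, against -0.0049 over all genes. Fold changes are of value plus 1 on the log2 scale. With 3 libraries against 3, an exact permutation test cannot give a p below 0.1.

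**Figure D1:**
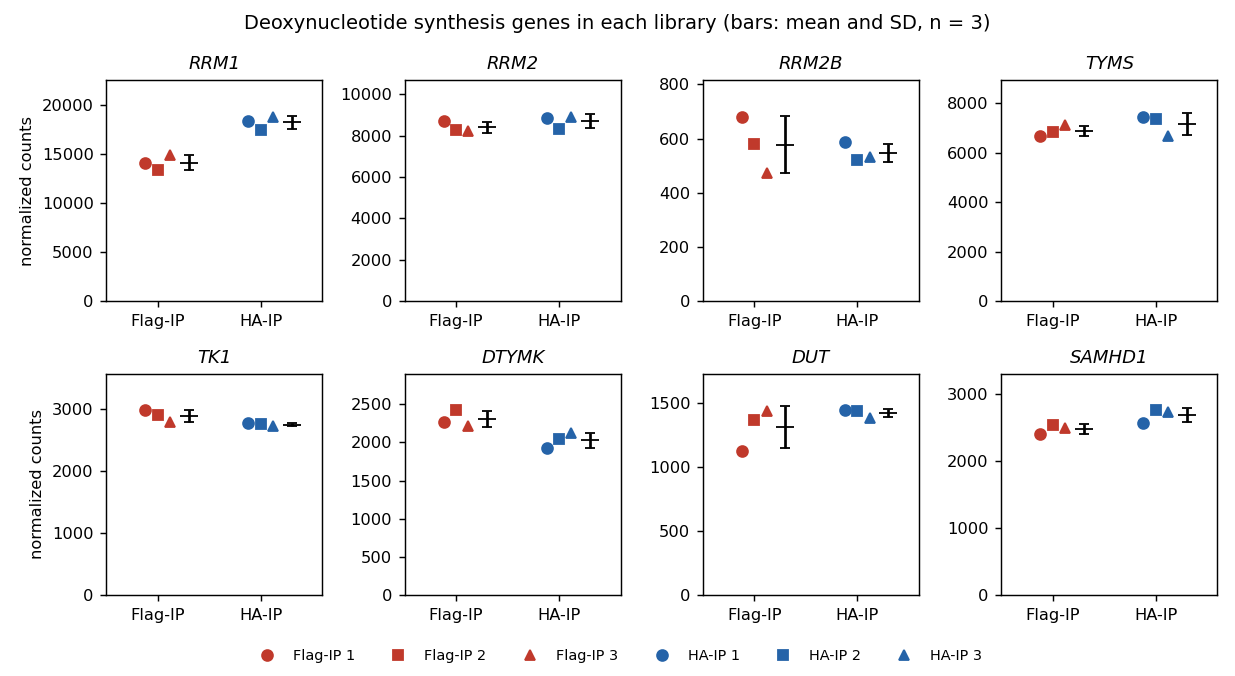
Normalized counts of each gene (vertical axes, each from 0) in the 3 Flag-IPs and 3 HA-IPs, with the mean and SD (n = 3) as bars. The groups of RRM1 are apart, from 13404 to 14974 in the Flag-IPs and from 17497 to 18841 in the HA-IPs.

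RRM1 (chr11:4094707-4138932, plus strand) had 14083, 13404 and 14974 normalized counts in Flag-IP 1, 2 and 3 and 18436, 17497 and 18841 in HA-IP 1, 2 and 3. All 3 HA-IPs were above all 3 Flag-IPs, and the gap between the groups was wider than the range inside either. The means were 14153 ± 788 (SD, n = 3) and 18258 ± 689 (SD, n = 3). The log2 fold change was 0.37 (SE 0.054, 95% interval 0.25 to 0.49), with an adjusted p of 0.0019 in limma. By size it was the 78th of the 975 genes that rose in the HA-IPs, and by p-value it was the 196th of 16834 genes. Its change was 0.33 to 0.41 when any 1 library was left out, and it passed in 6 of 6 such fits. Without the dependence of variance on expression level in limma, RRM1 had an adjusted p of 0.075, in a fit where 188 genes passed in all.

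RRM2 (chr2:10120698-10211725, plus strand) had 8719, 8295 and 8211 normalized counts in Flag-IP 1 to 3, against 8856, 8298 and 8917 in HA-IP 1 to 3. The groups overlapped, with HA-IP 2 level with Flag-IP 2. The means were 8408 ± 272 and 8690 ± 341 (SD, n = 3 each). The log2 change was 0.047, with a 95% interval of -0.060 to 0.15 and an adjusted p of 0.59 in limma. As a fold the interval was 0.959 to 1.11, below that of RRM1 (1.19 to 1.40). With the same total set for every library the change of RRM2 was -0.0056, and with quantile normalization it was -0.021.

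RRM2B (chr8:102204502-102238961, minus strand) had 680, 580 and 472 normalized counts in Flag-IP 1 to 3, against 586, 521 and 533 in HA-IP 1 to 3. The HA-IPs lay inside the range of the Flag-IPs, of which Flag-IP 1 was the highest and Flag-IP 3 the lowest. The means were 577 ± 104 and 546 ± 34.5 (SD, n = 3 each), and the log2 fold change of -0.065 had a 95% interval of -0.32 to 0.19 and an adjusted p of 0.77 in limma. This was the widest interval of the 8 genes, on 483 to 830 reads per library. Without Flag-IP 1 the change was 0.061, also without passing.

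Inside a library the ratio of 2 genes does not depend on the size factor. Per kilobase of canonical transcript, RRM2 reads were 0.597, 0.597 and 0.529 of RRM1 reads in Flag-IP 1 to 3, against 0.463, 0.457 and 0.456 in HA-IP 1 to 3. The ratio was lower in 3 of 3 HA-IPs than in any Flag-IP, and Flag-IP 3 was the Flag-IP nearest to them. On the log2 scale the ratio was -0.80 ± 0.10 in the Flag-IPs and -1.12 ± 0.012 in the HA-IPs (SD, n = 3 each), a difference of -0.32 with an exact two-sided permutation p of 0.1, the smallest this design can give. RRM2 made up 94.9, 95.4 and 96.2% of the small-subunit level per kilobase in Flag-IP 1 to 3, against 95.7, 95.9 and 96.1% in HA-IP 1 to 3. These shares overlapped, with means of 95.5 ± 0.645% and 95.9 ± 0.201% (SD, n = 3 each) and an exact permutation p of 0.5. RRM2 thus stood 18.8-fold to 25.5-fold above RRM2B per kilobase, in every library.

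**Figure D2:**
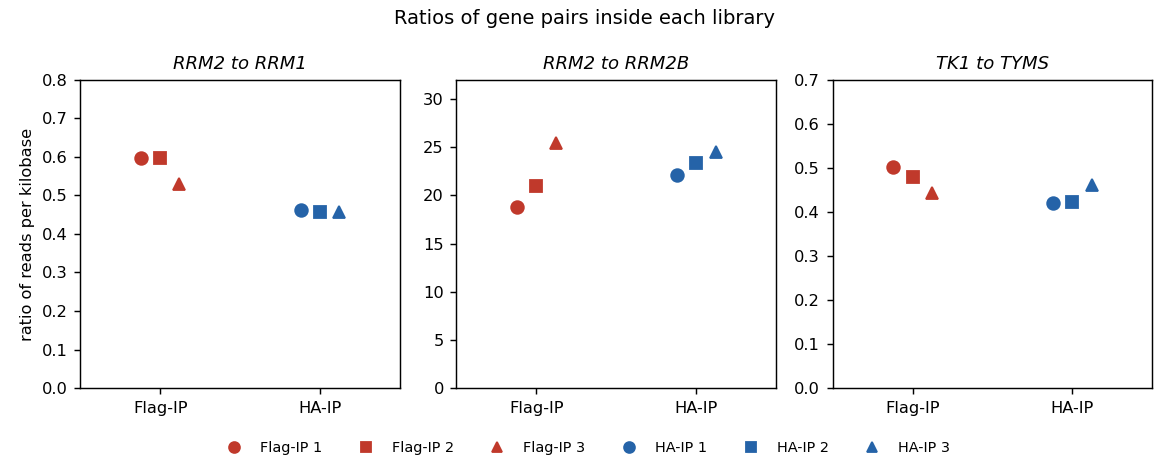
Ratios of reads per kilobase between gene pairs (vertical axes, from 0) in each Flag-IP and HA-IP, 1 point per library. RRM2 to RRM1 lies at 0.529 to 0.597 in the Flag-IPs and 0.456 to 0.463 in the HA-IPs, and the groups overlap for the other pairs.

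TYMS (chr18:657653-673578, plus strand) had 6676, 6820 and 7102 normalized counts in Flag-IP 1 to 3, against 7447, 7372 and 6650 in HA-IP 1 to 3. HA-IP 3 was the lowest of all 6 libraries and the other HA-IPs were the highest. The means were 6866 ± 217 and 7156 ± 440 (SD, n = 3 each). The log2 change was 0.058, with a 95% interval of -0.061 to 0.18 and an adjusted p of 0.54 in limma. ENOSF1, on the opposite strand, shares 967 exonic bases with TYMS and had a log2 fold change of -0.029, and TYMSOS shares 193 and had -0.20 (adjusted p of 0.59 in limma). Whether counting used the strand of the reads is not given in the sources used here, so how reads in shared bases were counted is not known.

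TK1 (chr17:78174091-78187233, minus strand) had 2979, 2900 and 2788 normalized counts in Flag-IP 1 to 3, against 2779, 2756 and 2723 in HA-IP 1 to 3. Every HA-IP was below every Flag-IP, but HA-IP 1 and Flag-IP 3 were nearly level. The means were 2889 ± 95.8 and 2753 ± 28.3 (SD, n = 3 each). The log2 change was -0.069, with a 95% interval of -0.18 to 0.038 and an adjusted p of 0.41 in limma. TK1 to TYMS, the ratio of the salvage to the de novo enzyme of thymidylate synthesis, was 0.503, 0.479 and 0.443 per kilobase in Flag-IP 1 to 3, against 0.421, 0.421 and 0.461 in HA-IP 1 to 3. HA-IP 3 lay among the Flag-IPs, and the log2 ratios of -1.08 ± 0.093 and -1.20 ± 0.076 (SD, n = 3 each) gave an exact permutation p of 0.2.

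DTYMK (chr2:241675747-241686944, minus strand) had 2266, 2417 and 2219 normalized counts in Flag-IP 1 to 3, against 1922, 2044 and 2119 in HA-IP 1 to 3. Every HA-IP was below every Flag-IP, with HA-IP 3 nearest to them. The means were 2301 ± 103 and 2029 ± 99.5 (SD, n = 3 each). The log2 change was -0.18, with a 95% interval of -0.31 to -0.054. The unadjusted p was 0.0093 and the adjusted p was 0.063 in limma, so DTYMK did not pass. It passed with the same total set for every library (-0.23, adjusted p of 0.026 in limma) and without Flag-IP 3 (-0.21, adjusted p of 0.041 in limma). DTYMK and TK1 have the shortest canonical transcripts of the 8, at 1051 and 1431 bases, and the highest GC content, at 57.8 and 60.3%. In each library, the deviations of genes from their own means over the 6 libraries were fitted by a smooth trend on GC content and length. With this trend removed, DTYMK had a change of -0.0034 and TK1 had 0.049, whereas RRM1 kept 0.37.

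DUT (chr15:48331011-48343373, plus strand) had 1127, 1369 and 1438 normalized counts in Flag-IP 1 to 3, against 1442, 1437 and 1387 in HA-IP 1 to 3. Flag-IP 1 was the lowest library, and the other 5 lay close together. The means were 1311 ± 163 and 1422 ± 30.4 (SD, n = 3 each). The log2 change was 0.12, with a 95% interval of -0.058 to 0.31 and an adjusted p of 0.38 in limma. Without Flag-IP 1 the change was 0.020 and without Flag-IP 3 it was 0.20, neither of which passed. DUT-AS1, on the opposite strand, shares 533 exonic bases with DUT and had 15.4 to 38.3 normalized counts. The annotation holds 8 pseudogenes named for DUT, 3 for RRM2 and 2 for TYMS, and none of them had a row in the table, so reads that these copies share with the genes were not resolved.

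SAMHD1 (chr20:36890229-36951893, minus strand) had 2395, 2539 and 2491 normalized counts in Flag-IP 1 to 3, against 2560, 2750 and 2727 in HA-IP 1 to 3. Every HA-IP was above every Flag-IP, with HA-IP 1 just above Flag-IP 2. The means were 2475 ± 73.6 and 2679 ± 104 (SD, n = 3 each). The log2 change was 0.11, with a 95% interval of -0.0014 to 0.23 and an adjusted p of 0.19 in limma. TLDC2, on the opposite strand, shares 1068 exonic bases with SAMHD1 and had 6.38 to 16.9 normalized counts.

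**Figure D3:**
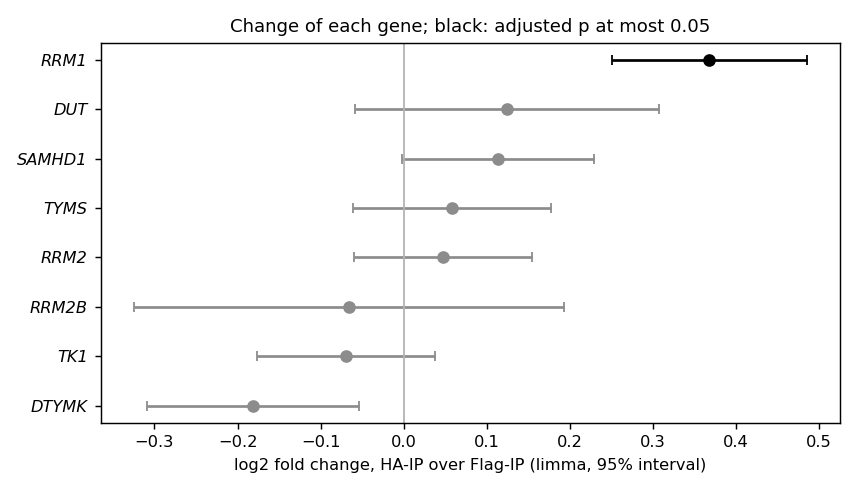
Log2 fold change of each gene, HA-IP over Flag-IP (horizontal axis), with its 95% interval from limma, black where the adjusted p was at most 0.05. The interval of RRM1, 0.25 to 0.49, lies above 0, that of DTYMK, -0.31 to -0.054, lies below 0 without passing after adjustment, and the other 6 include 0.

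Levels of the genes were compared as RPKM, the reads of a gene per kilobase of its canonical transcript, scaled to the reads of the library. RRM1 took 25.6 to 33.1% of the summed RPKM of the 8 genes in a library. RRM1 had the highest RPKM at 167 ± 20.7 (SD, n = 6 libraries, as for all levels here), followed by TYMS at 141 ± 6.37 and RRM2 at 85.0 ± 3.18. DTYMK at 66.8 ± 6.69 and TK1 at 63.9 ± 3.64 came next. DUT had 20.7 ± 1.62, SAMHD1 had 17.9 ± 0.657 and RRM2B had 3.82 ± 0.547. The ranges over the 6 libraries overlapped for RRM1 and TYMS, for DTYMK and TK1, and for DUT and SAMHD1, and the ranges of all other neighbours in this order were apart. Inside a library, RRM1 was above TYMS in 6 of 6 libraries and DUT above SAMHD1 in 6 of 6, whereas DTYMK was above TK1 in 5 of 6, all but HA-IP 1. RRM1 had 149 ± 6.22 in the Flag-IPs and 185 ± 6.96 in the HA-IPs (SD, n = 3 each), beside 140 ± 2.67 and 141 ± 9.69 for TYMS, so its lead was wider in the HA-IPs.

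The level of RRM1 was above that of 98.4% of the genes with a length, that of TYMS above 98.0% and that of RRM2 above 96.1%. RRM2B was above 44.5%. The highest and lowest levels were 43.6-fold apart, and 28.7-fold apart when reads scaled to the library were not divided by length. With merged exons in place of the canonical transcript as the length, TK1 stood above RRM2, so the order of the middle genes depends on the length used.

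**Figure D4:**
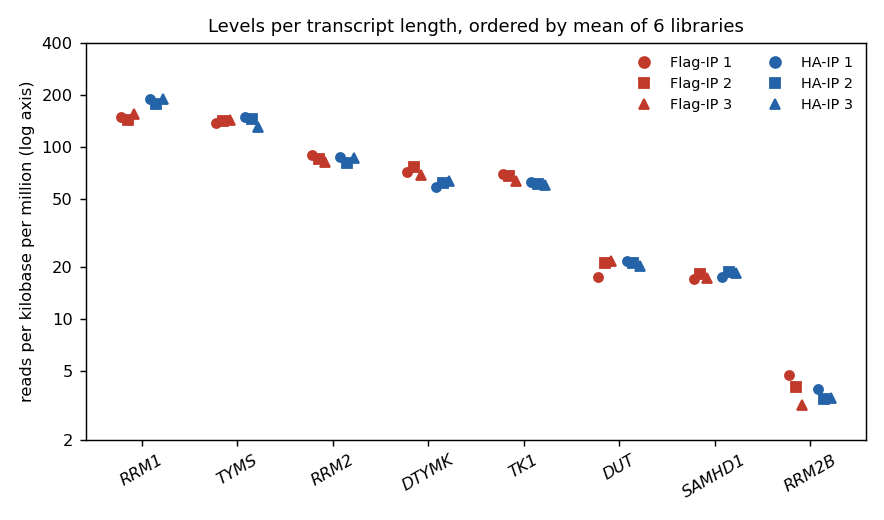
Level of each gene in RPKM (vertical log axis) in the 6 libraries, ordered by the mean. RRM1, TYMS and RRM2 lead with means of 167, 141 and 85.0, and RRM2B is lowest at 3.82.

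Of 57 other genes of nucleotide metabolism in lists around this pathway, 56 had values, and 11 of them passed, 8 higher in the HA-IPs and 3 higher in the Flag-IPs. The share of 19.6% stood beside 12.9% of all genes, and the median change was 0.038. The balance of directions turned with the scaling, with 5 higher in the HA-IPs and 8 higher in the Flag-IPs at the same total per library, and 4 and 4 with quantile normalization. Folate enzymes supply the one-carbon units that TYMS and purine synthesis use. Of 12 such genes, 3 passed, all higher in the HA-IPs (25% called, against 12.9% of all genes), with a median of 0.049. Passing or not, 7 of the 12 changes were above 0, in a range of -0.59 to 0.27. At the same total per library 3 passed as higher and 3 as lower, and with quantile normalization 1 passed as higher and 1 as lower. MTHFD1, the cytosolic enzyme with 3 activities in folate interconversion, had 26110, 26239 and 28829 normalized counts in Flag-IP 1 to 3, against 32098, 32343 and 33023 in HA-IP 1 to 3. It rose by 0.27 on the log2 scale (adjusted p of 0.0085 in limma), and its groups did not overlap. SHMT2, which takes a one-carbon unit from serine in mitochondria, rose by 0.20 (adjusted p of 0.013 in limma), and MTHFD1L, which releases mitochondrial formate, rose by 0.21 (adjusted p of 0.013 in limma).

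De novo pyrimidine genes had 2 of 5 higher in the HA-IPs (40% called, against 12.9% of all genes), with a median of 0.14. At the same total per library 1 of the 5 passed, as with quantile normalization. CTPS2, which makes CTP from UTP, rose by 0.27 (adjusted p of 0.011 in limma) and CAD, which carries out the first steps of the route, rose by 0.23 (adjusted p of 0.039 in limma). Of 13 purine genes, 2 rose and 1 fell in the HA-IPs (23.1% called, against 12.9% of all genes), with a median of 0.065. At the same total per library 1 rose and 2 fell, and with quantile normalization 1 rose and 1 fell. GART, with several activities early in purine synthesis, had 15661, 15893 and 16801 normalized counts in Flag-IP 1 to 3, against 19941, 19393 and 19886 in HA-IP 1 to 3, and rose by 0.29 (adjusted p of 0.0030 in limma). ATIC, which ends the route to IMP, rose by 0.16 (adjusted p of 0.043 in limma). APRT, which salvages adenine, had 3279, 3313 and 3333 normalized counts in Flag-IP 1 to 3, against 2522, 2745 and 2645 in HA-IP 1 to 3, and fell by 0.33 (adjusted p of 0.0025 in limma). With the GC and length trend removed its change was -0.17 (adjusted p of 0.018 in limma).

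Salvage genes and nucleotide kinases had values for 15 of 16 genes (CDA had none). Of the 15, 2 passed, both lower in the HA-IPs, with a median of -0.10. This was 13.3% called, near the 12.9% of all genes. Passing or not, 5 of the 15 changes were above 0. CMPK1, which phosphorylates CMP, UMP and dCMP, fell by 0.21 (adjusted p of 0.026 in limma). DCK, the kinase of deoxycytidine, had a change of 0.17 (adjusted p of 0.37 in limma) and TK2, the mitochondrial thymidine kinase, had 0.028 (adjusted p of 0.89 in limma). NME1 and NME2 make triphosphates from diphosphates and had -0.15 and -0.31 (adjusted p of 0.33 and 0.13 in limma). They are neighbouring, closely similar genes, so their separate values are uncertain. Without Flag-IP 1 they had -0.023 and -0.12, and without Flag-IP 3 they had -0.20 and -0.41, of which the last passed. Of 11 genes that clean or break down the pool, 1 rose (9.09% called, against 12.9% of all genes). TYMP, thymidine phosphorylase, had 35.1, 38.3 and 30.4 normalized counts in Flag-IP 1 to 3, against 74.1, 57.4 and 52.9 in HA-IP 1 to 3, a log2 change of 0.80 (adjusted p of 0.041 in limma) that passed in 0 of 6 fits with 1 library left out. DCTPP1, which cleaves dCTP, had -0.16 (adjusted p of 0.30 in limma).

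These list counts moved with single libraries. Leaving out 1 library gave 0 to 4 folate genes, 0 to 3 pyrimidine genes, 0 to 5 salvage genes and 2 to 17 of the 56 genes together, with 2 of the 56 without Flag-IP 2 and 17 without Flag-IP 3. Without HA-IP 1, 2 or 3 the counts among the 56 genes were 3, 4 and 6. RRM1, GART and APRT passed in 6 of 6 such fits, MTHFD1 passed in 5 of 6, CAD and ATIC passed in 1 of 6. SHMT2 and CMPK1 passed in 2 of 6.

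The 35 genes of DNA replication origins and forks were used for comparison. Of these, 11 rose and 1 fell in the HA-IPs (34.3% called, against 12.9% of all genes), with a median change of 0.087. The dNTP genes had 1 of 8 called and a median of 0.053, and the difference between the lists was not tested. At the same total per library 8 replication genes rose and 2 fell, and with quantile normalization 6 rose and 2 fell. MCM2, a subunit of the replicative helicase, rose by 0.26 (adjusted p of 0.0080 in limma) and CDC6, which helps to load it, rose by 0.27 (adjusted p of 0.0092 in limma). The gene that fell, RPA3, named after its value was seen, encodes the smallest subunit of the single-strand binding protein RPA. It fell by 0.67 (adjusted p of 0.043 in limma), from a mean of 154 to 94.0 normalized counts. RPA3 did not pass without Flag-IP 2, without HA-IP 1, 2 or 3, or with a replicate block. Without Flag-IP 2 none of the 35 passed in limma, with 14 at an unadjusted p under 0.05, and without HA-IP 1, 2 or 3 the counts were 4, 5 and 4.

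**Figure D5:**
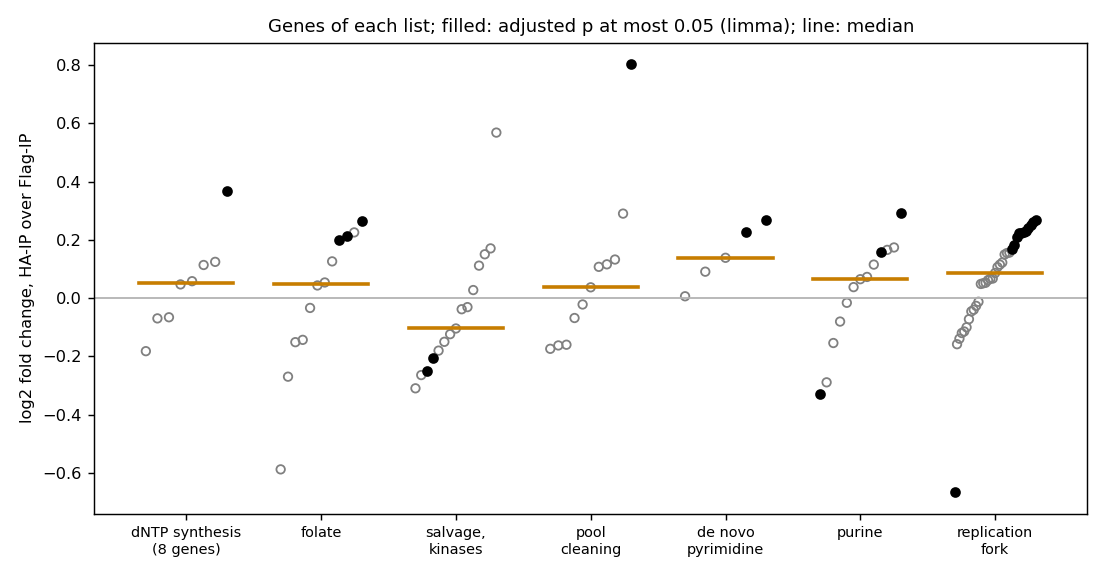
Log2 fold change, HA-IP over Flag-IP (vertical axis), of every gene with a value in each list, filled where the adjusted p in limma was at most 0.05, with the median as a line. Medians run from -0.10 for salvage genes and kinases to 0.14 for de novo pyrimidine genes, and the dNTP synthesis genes have 1 filled point, RRM1 at 0.37.

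Over the 6 libraries, the gene whose centred log2 values were most like those of RRM1 was SMG8, with a root mean square difference of 0.028, among 11635 genes with a symbol and a mean of at least 100. The nearest genes of the others were TMEM237 for RRM2 (0.013), TMEM106B for RRM2B (0.038), LZTS3 for TYMS (0.0099) and ALDOA for TK1 (0.0090). CCDC3 was nearest to DTYMK (0.013), REEP4 to DUT (0.015) and LEO1 to SAMHD1 (0.015). None of these was another of the 8 genes, and the likeness describes 6 values only.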

How the data were processed

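Ribosome-bound, poly(A)-selected RNA from 3 Flag-IPs and 3 HA-IPs was sequenced. The authors trimmed reads with Trimmomatic 0.36, aligned them with STAR 2.5.2b, counted them with featureCounts (Subread 1.5.2) and deposited, for each gene and library, a count divided by a DESeq2 size factor (a normalized signal). The deposited log2 fold changes and adjusted p-values of the authors hold their own comparison of the groups and were not used. Groups and replicate numbers came from the sample titles.

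For every gene, log2(value + 1) was fitted in limma 3.58.1 (R 4.3.3) with a variance trend, all 6 libraries and no covariate. Tests were two-sided, p-values were adjusted by the Benjamini-Hochberg method over 16834 genes, and an adjusted p of at most 0.05 counted as passing. Every gene in the table has at least 10 reads in 3 or more libraries. Dividing each library by the value of 1 read gave whole reads for 100% of values (tolerance 0.01), and these were used in edgeR 4.0.16 and DESeq2 1.42.0, which called 2131 and 2274 genes against 2171 in limma. Locations, lengths and GC content came from GENCODE 44 (GRCh38), in which 16683 genes matched by identifier. Promoter windows came from RefSeq (GRCh38.p14) and were found for 7 of the 8 genes. Ratios of genes were tested by exact permutation of libraries. The script was tested on simulated data. The intervals of limma rest on 3 libraries a group.

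The genes and lists were chosen with earlier results of these data known. Named from the lists were the genes that passed (at most 12, by adjusted p), with DCK, TK2, DCTPP1, NME1, NME2 and CAD always, the 2 replication genes of lowest adjusted p, genes overlapping one of the 8 genes, and 1 gene of most similar pattern for each. Some genes that this rule names are not reported here. Alternatives were other pseudocounts, a filter at a mean of 50, quantile normalization, the same total per library, a replicate block, removal of a GC and length trend, a threshold of 0.01, and leaving out each library. Leaving out both libraries numbered 3 was chosen after seeing the data.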

Additional observations from a re-analysis of the deposited data

How the results depend on the processing

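RRM1 passed under 17 of 18 alternatives, with changes of 0.28 to 0.41, and missed the threshold in limma without the variance trend. That fit called none of the 8 genes or of any list (members, folate, salvage, pool cleaning, pyrimidine, purine and replication all 0), with 2, 5, 3, 2, 2, 4 and 15 genes at an unadjusted p under 0.05. RRM1 also passed in edgeR and DESeq2 on the recovered reads. With the same total per library, members called were 2, folate genes 6 (3 in each direction), pyrimidine genes 1 and pool cleaning genes 0, and all genes called were 471 higher in the HA-IPs and 1576 higher in the Flag-IPs, against 975 and 1196. With both libraries numbered 3 left out, members called were 2 (DTYMK at -0.24) and pool cleaning genes 0. Quantile normalization gave 1 pyrimidine gene, and DESeq2 and the filter at a mean of 50 gave 0 pool cleaning genes (TYMP). With the GC and length trend removed, 5 folate, 4 salvage and 7 purine genes passed. At a threshold of 0.01, folate genes numbered 1, replication genes 2, and salvage, pool cleaning and pyrimidine genes 0. Leaving out 1 library gave 1 to 2 members, 0 to 4 folate, 0 to 5 salvage, 0 pool cleaning, 0 to 3 pyrimidine, 2 to 5 purine and 0 to 18 replication genes, and 620 (without Flag-IP 2) to 3059 (without Flag-IP 3) of all genes.

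Changes that did not pass reversed for RRM2 (-0.021 by quantile, -0.0056 at the same total), RRM2B (0.061 without Flag-IP 1, in a range of -0.20 to 0.061 over single libraries left out), TYMS (-0.00057 by quantile), TK1 (0.049) and NME1 (0.035) with the GC and length trend removed, and TK2 (-0.025 at the same total, -0.0010 without the GC and length trend, -0.063 without Flag-IP 3 in a range up to 0.079, and -0.057 without both libraries numbered 3). NME2 passed without Flag-IP 3 (-0.41). The causes were not tested. The spread of levels was 28.7-fold without division by length. Same-numbered Flag-IPs and HA-IPs had deviations from their group means correlated at -0.156, 0.0306 and -0.310. With 3 libraries a group these deviations are tied to each other. They cannot decide whether same-numbered libraries came from 1 culture, which the labels do not say. A replicate block gave 1662 genes in place of 2171, with 1 member, 0 salvage and 0 pool cleaning genes. Of the 6 libraries, only Flag-IP 2 correlated best with its own number, and the highest correlation was that of Flag-IP 1 with HA-IP 3, at 0.302. For the 6 genes whose 95% intervals included 0, 3 libraries a group exclude neither a change of 0 nor the other changes inside the interval. These genes had 483 to 12550 reads per gene and library.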
